A study of Mus musculus with 5 samples.

Results

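The genes described here are 18 enzymes of glycolysis, 17 further genes that are classically induced by low oxygen, and the genes of 2 alpha subunits of the hypoxia-inducible factor (HIF), Hif1a and Epas1. They were taken by symbol from a fixed list of 37 names, and all 37 were found among the 23951 genes of the table. RNA was sequenced from 5 cultures of mouse pluripotent cells, with 1 library per group. E14 embryonic stem cells (ESCs) stand for the naive state and were grown either in leukaemia inhibitory factor (LIF) at 1000 U/ml with 15% serum in DMEM, or in LIF with BMP-4 at 10 ng/ml in a serum-free basal medium. Epiblast stem cells derived from ESCs (EpiSCs), labelled as of E14 origin too, stand for the primed state and were grown in N2B27 medium with FGF2 at 12 ng/ml and Activin A at 20 ng/ml on serum-coated plates. They either were left untreated or received BMP-4 (10 ng/ml) during 1.5 h or 24 h. The ESCs in LIF and serum were therefore the single culture in serum-containing medium, and serum, basal medium, BMP-4 and culture batch cannot be told apart between the ESC libraries. Between ESCs and untreated EpiSCs, cell state cannot be told apart from LIF, FGF2, Activin A, medium and batch. Nor can it be told apart from serum in the medium or from BMP-4, where the ESCs received them. The labels used here name no oxygen level for any culture.

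Glycolysis splits glucose into pyruvate in the cytosol, and lactate dehydrogenase then turns pyruvate into lactate, which regenerates the oxidised cofactor that the pathway needs. HIF is a transcription factor whose alpha subunits are hydroxylated by prolyl hydroxylases when oxygen is present and are then destroyed through the VHL ubiquitin ligase. When oxygen falls, HIF binds short DNA elements and raises many glycolytic enzymes along with genes of mitophagy, collagen hydroxylation and blood vessel growth. Several glycolytic enzymes are themselves HIF targets. Primed pluripotent cells are known for a strong reliance on glycolysis, while naive cells also use mitochondrial respiration.

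Values are FPKM, read fragments scaled to transcript length and to library size, so levels of different genes can be compared per length. Ranges in square brackets are the interval deposited with a value, a model of its uncertainty in that library and no spread between cultures. Differences are of log2(FPKM + 1), folds are ratios of FPKM + 1, and "higher" or "lower" means at least 2-fold on that scale, among genes whose FPKM averaged 1 or more across the 5 libraries. All 18 enzymes, 14 of the 17 hypoxia-inducible genes and both HIF subunits passed that mean, and Adm, Pfkfb4 and Car9 did not. No p-value is given, because 1 library per group leaves no replicate error. In such bulk RNA, fewer cells of a type and less RNA per cell cannot be told apart. The upper bound lay above the value by a median of 46.5% to 50.3% for the enzymes, depending on the library, and by 73.4% to 95.3% for the less abundant hypoxia-inducible genes. Estimated depth was lowest for ESCs in LIF and serum, at about 8600000 reads, and highest for EpiSCs at 24 h, at about 13500000 reads. The naive markers fixed for the check were Zfp42, Esrrb, Klf4, Nr0b1, Tbx3 and Tfcp2l1. They summed to between 1449 and 1664 FPKM in the ESC libraries and to between 2.09 and 3.71 in the EpiSC libraries. The 5 primed markers summed to about 61 FPKM in either ESC library and between 461 and 603 in EpiSCs. By these sums the libraries carried the labelled states, but Dnmt3b made up most of the primed sum. In untreated and 24 h EpiSCs, Dnmt3b stood at 403 and 288 FPKM, Fgf5 at 133 and 60.2, and Otx2 at 30.1 and 8.21. Pou3f1 stood at 24.4 and 15.3 FPKM there, and T at 11.9 and 89.2. Markers of other cell types were low but not even. The sum of 5 fibroblast genes ran from 2.70 to 6.41 FPKM over the libraries, and Thy1 made up most of it in each. Col1a1, Col1a2, Col3a1 and Twist2 reached at most 0.83 FPKM, with each EpiSC value above those of the ESC libraries. The sum of 4 genes of extraembryonic endoderm was 0.357 FPKM with serum and 0.720 with BMP-4 in ESCs, and 7.11, 8.11 and 5.10 in EpiSCs. Pax6 and Sox1, of neural cells, summed to 3.13 FPKM in ESCs with serum and 9.02 in ESCs with BMP-4, and to between 0.423 and 0.525 in EpiSCs. Their part in the results was not tested.

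Sequence shared with pseudogenes limits several enzymes. Of the 18 enzymes, 10 had over 10% of their 36-base words in transcripts of other genes in GENCODE M21, up to 68.2% for Pgk1 and 61.5% for Gapdh, against 2 of 17 hypoxia-inducible genes, Bnip3 (24.1%) and Bnip3l (27.0%). Eno1 shares 52.4% of its words, mainly with its copy Eno1b, which has its own row, and both are treated together below.

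The first steps of glycolysis consume ATP, and the values of both hexokinases in EpiSCs lay below those in ESCs. Hexokinase traps glucose as its phosphate. Hk2, the isoform tied to rapid growth (mm9 chromosome 6, 82675021 to 82724448), stood at 96.7 FPKM in ESCs with LIF and serum and 85.0 in ESCs with LIF and BMP-4, and at 49.4, 48.1 and 48.1 in untreated, 1.5 h and 24 h EpiSCs. Hk1, the widely expressed isoform (chromosome 10, 61731603 to 61842656, overlapping Hk1os), stood at 21.4 and 16.0 FPKM in the ESC libraries and at 5.67, 6.47 and 5.35 in the EpiSC libraries, in the same order. All 3 EpiSC libraries thus lay below both ESC libraries for either gene. Untreated EpiSCs were 3.36-fold lower in Hk1 than ESCs in serum and 2.56-fold lower than ESCs with BMP-4, with overlapping intervals ([1.33 to 10.0] against [9.19 to 33.7] and [6.35 to 25.7]). Together the hexokinases summed to 118 and 101 FPKM in ESCs and to between 53.4 and 55.1 in EpiSCs, and Hk2 made up 81.9% to 89.98% of the sum in each library. Gpi1, which turns glucose phosphate into fructose phosphate, stayed between 62.7 and 77.9 FPKM, with 27.5% of its words shared with other genes.

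Phosphofructokinase commits sugar to glycolysis, and its mix of subunits differed between the cell states. Pfkl, the liver-type subunit (chromosome 10, 77449694 to 77472541), was at 41.9 FPKM [20.5 to 63.3] with serum, 117 [66.4 to 167] in ESCs with BMP-4, and 125, 135 and 131 in untreated, 1.5 h and 24 h EpiSCs. The serum library was alone in being low. ESCs with BMP-4 were 2.75-fold higher and untreated EpiSCs 2.93-fold higher than that library, both with intervals apart. Pfkp, the platelet-type subunit (chromosome 13, 6547403 to 6648017), followed the cell state instead, at 33.6 and 47.8 FPKM in ESCs and 8.45, 8.29 and 7.86 in EpiSCs. It was 3.66-fold lower in untreated EpiSCs than in ESCs with serum and 5.17-fold lower than in ESCs with BMP-4, with overlapping intervals. Pfkm, the muscle-type subunit, differed the other way, at 11.9 and 16.3 FPKM in ESCs and 24.2, 25.6 and 20.1 in EpiSCs. Untreated EpiSCs lay 0.96 above ESCs with serum on the log2 scale, short of 2-fold, but at 1.07 under upper-quartile scaling and 1.01 with a pseudocount of 0.1. Its locus overlaps that of Senp1, and the locus of Pfkp that of Pitrm1. By share of the summed FPKM, Pfkp made up 38.4% of the step in ESCs with serum and 26.4% with BMP-4, but 4.89% to 5.38% in EpiSCs, where Pfkl made up 79.2% to 82.5%.

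**Figure D1:**
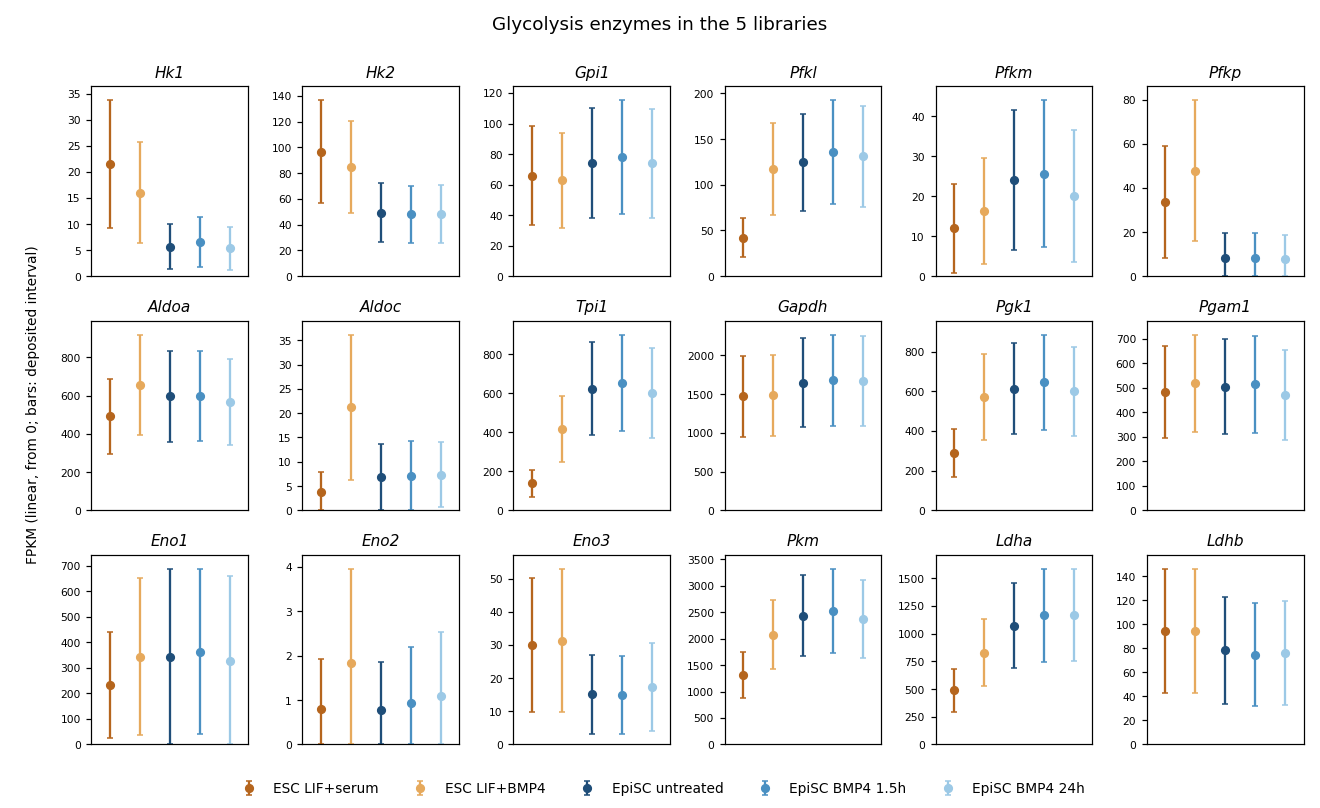
FPKM of the 18 glycolysis enzymes (1 panel each, linear axis from 0) in the 5 libraries, with points for values and bars for deposited intervals. Pfkl, Tpi1, Pgk1, Pkm and Ldha were lowest in ESCs with LIF and serum. For Hk1, Hk2, Pfkp and Eno3 the values in all 3 EpiSC libraries lay below those in both ESC libraries, not always by 2-fold.

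Aldolase cuts the 6-carbon sugar into triose phosphates. Aldoa, the main isoform, stood at 491 FPKM in ESCs with serum, 658 with BMP-4 and 596, 599 and 568 in the EpiSC libraries, all within 2-fold. Aldoc, the isoform known from brain (chromosome 11, 78137700 to 78140262), reached 21.2 FPKM [6.32 to 36.2] in ESCs with BMP-4 and stood at 3.71 [0 to 7.80] with serum and 6.86, 7.09 and 7.36 in EpiSCs. It was 4.73-fold higher with BMP-4 than with serum, the largest difference of any enzyme between the ESC libraries, and 2.83-fold lower in untreated EpiSCs than in ESCs with BMP-4, with overlapping intervals in both cases. Of the neural markers, Pax6 stood at 0.922 FPKM in ESCs with serum and 6.40 with BMP-4, but Sox1 at 2.21 and 2.62. The relation of these markers to Aldoc was not tested. Even at its highest Aldoc made up 3.13% of the summed aldolase FPKM.

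Triosephosphate isomerase, Tpi1 (chromosome 6, 124758959 to 124764314), which interconverts the triose phosphates, was measured at 138 FPKM [69.5 to 206] with serum, 416 [247 to 586] with BMP-4, and 624 [384 to 864], 652 and 600.4 in EpiSCs. The serum library lay below every other library with intervals apart. The fold was 3.01 for ESCs with BMP-4 and 4.51 for untreated EpiSCs, the latter the largest increase of an enzyme between the states. Tpi1 shares 13.1% of its words with other genes, among them the processed pseudogene Tpi-rs11, and its locus overlaps Spsb2.

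The payoff phase, in which ATP is made, was dominated by very abundant transcripts. Gapdh, the glyceraldehyde phosphate dehydrogenase often used as a reference gene, was nearly level at 1474, 1484, 1647, 1680.5 and 1667 FPKM (ESCs with serum, ESCs with BMP-4, then EpiSCs untreated, at 1.5 h and at 24 h). Pgam1, phosphoglycerate mutase, was level too, between 469 and 517 FPKM. Pgk1, phosphoglycerate kinase and the first enzyme of the pathway to yield ATP (chromosome X, 103382439 to 103399038), was at 287 FPKM [166 to 408] with serum, 570.4 [355 to 786] with BMP-4, and 613 [384 to 843], 646 and 599 in EpiSCs. Its difference between the ESC libraries, 0.99 on the log2 scale, fell just short of 2-fold but passed it under upper-quartile scaling (1.02) and median centring (1.00), and untreated EpiSCs were 2.13-fold higher than ESCs with serum, with overlapping intervals.

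Enolase makes phosphoenolpyruvate. Eno1 was listed at 232 FPKM [25.1 to 439.5] with serum, 344 with BMP-4 and 341 [0 to 689], 363 and 327 in EpiSCs, and Eno1b at 1763, 2523, 3070, 3085 and 2966. The words of Eno1 are found in Eno1b for 51.3%, so how the reads fell between these rows is uncertain. Their sum, 1995, 2867, 3411, 3448 and 3293 FPKM, was again lowest with serum. Eno3, the muscle isoform, shared no word with another gene and stood at 30.0 and 31.3 FPKM in ESCs and 15.1, 14.9 and 17.3 in EpiSCs, where untreated EpiSCs were 2.00-fold lower than ESCs with BMP-4 with overlapping intervals. That difference sat at the threshold and fell short of it under upper-quartile scaling (-0.92) and with a pseudocount of 5 (-0.85). Eno2, the neuronal isoform, stayed at or under 1.83 FPKM.

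Pyruvate kinase Pkm was the most abundant listed enzyme in 4 of the libraries, at 1313 FPKM [883 to 1743] with serum, 2073 [1421 to 2725] with BMP-4, and 2435, 2527 and 2369 in EpiSCs. In ESCs with serum Gapdh stood above it. All Pkm differences lay within 2-fold, with intervals that overlapped in each comparison, though untreated EpiSCs against serum reached 1.01 on the log2 scale under upper-quartile scaling. Ldha, the lactate dehydrogenase subunit that favours lactate formation (chromosome 7, 54101174 to 54110997), was at 490.1 FPKM [295 to 685] with serum, 827 [525 to 1129] with BMP-4, and 1073 [693 to 1453], 1164 and 1167 in EpiSCs. Untreated EpiSCs were 2.19-fold higher than ESCs with serum, with intervals narrowly apart, and 0.38 above ESCs with BMP-4 on the log2 scale. Ldhb, the subunit typical of oxidative tissue, stood at 94.3 and 94.5 FPKM in ESCs and slightly below that in EpiSCs, at 78.5, 74.6 and 75.9. The share of Ldha in the summed lactate dehydrogenase FPKM was 83.9% with serum, 89.7% with BMP-4 and 93.2% to 94.0% in EpiSCs.

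**Figure D2:**
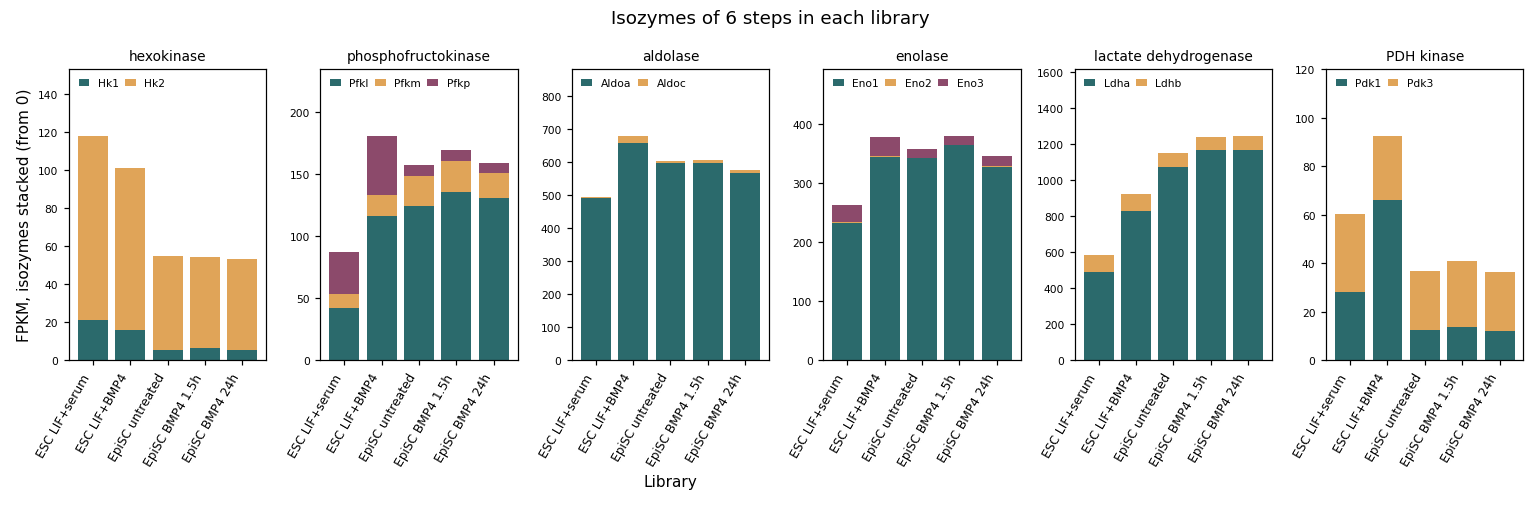
FPKM of the isozymes of 6 steps (stacked bars from 0, 1 bar per library; Eno1b is not included in the enolase bars, and PDH is pyruvate dehydrogenase). The Pfkp part of phosphofructokinase was small in the EpiSC libraries, at 4.89% to 5.38%, and the Pdk1 part of its step was largest in ESCs with LIF and BMP-4, at 71.4%.

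Added over the 18 enzymes, glycolytic FPKM came to 5308 in ESCs with serum, 7383 with BMP-4, and 8221, 8544 and 8155 in untreated, 1.5 h and 24 h EpiSCs. This sum is carried by Pkm, Gapdh and Ldha, and it leaves out Eno1b.

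Of the hypoxia-inducible genes that act on mitochondria, Bnip3 and Pdk1 were 2-fold apart in some comparisons and Bnip3l, Pdk3 and Higd1a in none. Bnip3, a mitophagy receptor of the outer mitochondrial membrane (chromosome 7, 146082519 to 146101189), was listed at 1.19 FPKM [0 to 2.85] with serum, about 18 reads at the estimated depth, and at 22.7 [7.05 to 38.4] with BMP-4, about 357 reads. EpiSCs stood at 14.8 [3.58 to 25.9], 14.6 and 15.5 FPKM. The serum library was the low one for this gene, and the other 4 were alike within their intervals. ESCs with BMP-4 were 10.8-fold higher and untreated EpiSCs 7.18-fold higher than it, with intervals apart. Its paralog Bnip3l, also a mitophagy receptor, showed a far smaller span, from 39.6 FPKM with serum to 54.7 with BMP-4 and 58.8, 55.5 and 54.9 in EpiSCs. Bnip3 shares words mainly with the processed pseudogene Gm16439, which has no row of its own here.

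Pyruvate dehydrogenase kinases inhibit pyruvate dehydrogenase, which limits the use of pyruvate in mitochondria. Pdk1 (chromosome 2, 71711281 to 71741915) stood at 28.3 FPKM [13.7 to 42.9] with serum, 66.1 [36.8 to 95.4] with BMP-4 and 12.3 [4.84 to 19.8], 13.7 and 11.9 in EpiSCs. Both ESC libraries were above all EpiSC libraries, with the one in BMP-4 the highest. Untreated EpiSCs were 5.03-fold lower than ESCs with BMP-4 with intervals apart, and 2.20-fold lower than ESCs with serum, where the intervals overlapped. ESCs with BMP-4 were 2.29-fold higher in Pdk1 than ESCs with serum, also with overlapping intervals. Pdk3 stood between 24.5 and 32.2 FPKM throughout. Pdk1 was thus 71.4% of the summed pair in ESCs with BMP-4, 46.8% with serum and 32.8% to 33.5% in EpiSCs. Higd1a, a small protein of the inner mitochondrial membrane, stood at 16.9 FPKM with serum and between 25.3 and 27.0 elsewhere.

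Egln1 and Egln3 encode prolyl hydroxylases that mark HIF for destruction, and both genes are themselves HIF targets. Egln1 (PHD2, the main such enzyme) stood at 4.97 FPKM [0.889 to 9.06] with serum, 8.23 with BMP-4 and 10.99 [3.34 to 18.6], 12.8 and 11.5 in EpiSCs. Egln3 (PHD3) stood at 1.19 FPKM with serum, 4.02 with BMP-4 and 4.07, 3.27 and 4.31 in EpiSCs. For either gene the serum library was lowest. Untreated EpiSCs were 2.01-fold higher in Egln1 than ESCs with serum. Egln3 was 2.30-fold higher in ESCs with BMP-4 and 2.32-fold higher in untreated EpiSCs than with serum. The intervals overlapped in all 3 of these comparisons. P4ha1, the alpha subunit of a collagen prolyl hydroxylase of the endoplasmic reticulum, stood at 7.75 FPKM [2.23 to 13.3] with serum, 16.6 with BMP-4 and 29.1 [13.2 to 45.0], 29.6 and 29.4 in EpiSCs. It was 2.01-fold higher in ESCs with BMP-4 and 3.44-fold higher in untreated EpiSCs than with serum, with overlapping intervals. Its paralog P4ha2 stayed between 4.09 and 5.99 FPKM.

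**Figure D3:**
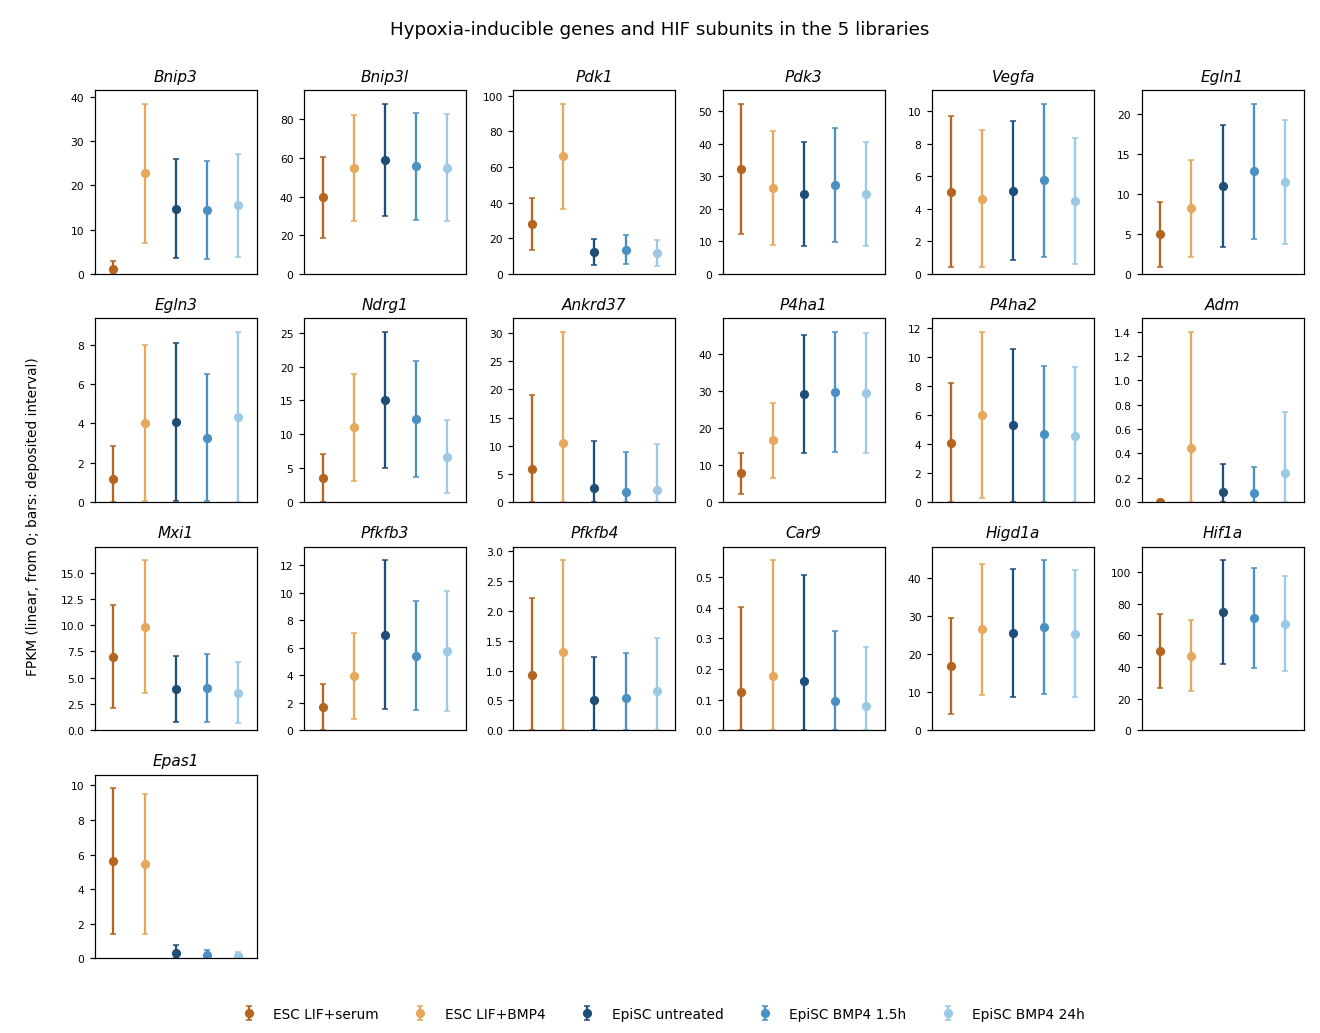
FPKM of the 17 hypoxia-inducible genes and of Hif1a and Epas1 (1 panel each, linear axis from 0) in the 5 libraries, with deposited intervals as bars. Bnip3 was low in ESCs with LIF and serum alone, Pdk1 was highest in ESCs with LIF and BMP-4, and Epas1 was near 0 in the EpiSC libraries.

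Ndrg1, a gene induced by stress and differentiation (chromosome 15, 66760880 to 66801203), was the one hypoxia-inducible member 2-fold apart after BMP-4 in EpiSCs. It stood at 3.60 FPKM [0.0474 to 7.16] in ESCs with serum, 11.02 with BMP-4, 15.1 [5.04 to 25.1] in untreated EpiSCs, 12.3 [3.73 to 20.8] at 1.5 h and 6.70 [1.33 to 12.1] at 24 h. It was 2.61-fold higher in ESCs with BMP-4 and 3.49-fold higher in untreated EpiSCs than with serum, and 2.09-fold lower at 24 h than in untreated EpiSCs, with overlapping intervals each time. Pfkfb3, whose product makes the activator of phosphofructokinase, stood at 1.69 FPKM with serum, 3.97 with BMP-4 and 6.96, 5.43 and 5.77 in EpiSCs, and was 2.97-fold higher in untreated EpiSCs than with serum, again with overlapping intervals. Its relative Pfkfb4 stood between 0.506 and 1.31 FPKM, below the mean filter.

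For Ankrd37 and Mxi1, the values in every EpiSC library lay below those in either ESC library. Ankrd37, a small ankyrin repeat gene whose locus overlaps Ufsp2, stood at 5.93 and 10.4 FPKM in ESCs and 2.43, 1.81 and 2.19 in EpiSCs, with intervals that reach 0 in each library. Mxi1, a Max partner that opposes Myc, stood at 7.02 and 9.85 FPKM in ESCs and 3.95, 4.04 and 3.58 in EpiSCs. Untreated EpiSCs were 3.32-fold lower in Ankrd37 and 2.19-fold lower in Mxi1 than ESCs with BMP-4, and 2.02-fold lower in Ankrd37 than ESCs with serum, with overlapping intervals. The last of these, -1.01 on the log2 scale, fell short of 2-fold under upper-quartile scaling (-0.92) and, barely, under median centring, and with a pseudocount of 5 (-0.56). Several well-known hypoxia genes were low or flat. Vegfa, the vascular growth factor, stood between 4.50 and 5.74 FPKM. Car9, carbonic anhydrase 9 and a common marker of hypoxia, did not exceed 0.177 FPKM, about 3 reads. Adm, adrenomedullin, was listed at 0 with serum and stood at 0.441, 0.0801, 0.0717 and 0.236 FPKM in the other libraries, which is about 5 reads at most.

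The HIF alpha subunits differed in opposite directions between the states. Hif1a (chromosome 12, 75008854 to 75048517) was at 50.1 FPKM [26.4 to 73.8] with serum and 47.1 with BMP-4 in ESCs, and at 74.7 [41.7 to 108], 71.0 and 67.4 in EpiSCs, within 2-fold. Epas1, which encodes HIF-2 alpha (chromosome 17, 87153204 to 87232750), was at 5.63 FPKM [1.42 to 9.84] and 5.46 [1.41 to 9.52] in ESCs and at 0.310 [0 to 0.752], 0.163 and 0.121 in EpiSCs. All 3 EpiSC values lay above both ESC values for Hif1a, with overlapping intervals, and below both for Epas1. Epas1 was 5.06-fold lower in untreated EpiSCs than in ESCs with serum and 4.93-fold lower than with BMP-4, with intervals apart in both. With a pseudocount of 0.1 in place of 1 the log2 differences for Epas1 were -3.80 and -3.76 rather than -2.34 and -2.30, and with a pseudocount of 5 they were -1.002 and -0.979, so that the second fell short of 2-fold. Epas1 made up 10.1% and 10.4% of the summed pair in ESCs and 0.18% to 0.41% in EpiSCs. These are transcript levels, and HIF is regulated mainly through protein stability, which was not measured.

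Between the ESC libraries, 3 of 18 enzymes (Pfkl, Aldoc and Tpi1) and 5 of 14 hypoxia-inducible genes (Bnip3, Pdk1, Egln3, Ndrg1 and P4ha1) were higher with LIF and BMP-4 than with LIF and serum, where 2.61% of all genes compared were. None of either list was lower, where 1.28% of all genes compared were. The median difference was 0.46 for the enzymes and 0.67 for the hypoxia-inducible genes, beside -0.02 for all 11010 genes compared. By direction alone, 15 of 18 enzymes and 12 of 14 hypoxia-inducible genes lay above 0. Of all 11010 genes compared, 5242 lay above 0 and 5733 below. Of the 34 members compared, 3 (Pfkl, Tpi1 and Bnip3) were 2-fold apart with intervals apart, where 0.2% of all genes compared were. The members were not alike in this: Gapdh, Pgam1, Gpi1 and Ldhb lay within 0.10 of 0, and Hk1 and Hk2 at -0.40 and -0.18.

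The proximal promoters of these 8 genes are shown because the genes were higher in the same comparison, which is how they were picked, and because HIF binds a core of ACGTG or GCGTG. RefSeq promoter windows on GRCm38.p6 matched 34 of the 37 members, and 7 of these 8. Each line gives the 250 bases upstream of the first listed start site, 5′ to 3′ on the gene's strand, with ACGTG and GCGTG, or their complements CACGT and CACGC, in capitals.
Pfkl, chr10:78009808-78010057, minus strand: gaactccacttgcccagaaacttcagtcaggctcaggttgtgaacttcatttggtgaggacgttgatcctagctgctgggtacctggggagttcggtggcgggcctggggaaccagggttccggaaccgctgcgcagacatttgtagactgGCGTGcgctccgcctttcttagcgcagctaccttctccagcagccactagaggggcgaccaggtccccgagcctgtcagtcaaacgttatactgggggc
Aldoc, chr11:78322823-78323072, plus strand: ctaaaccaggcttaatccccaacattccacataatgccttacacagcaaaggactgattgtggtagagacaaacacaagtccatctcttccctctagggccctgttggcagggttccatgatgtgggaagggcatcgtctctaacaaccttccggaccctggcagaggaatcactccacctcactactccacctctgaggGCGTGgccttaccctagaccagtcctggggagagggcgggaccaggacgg
Tpi1, chr6:124814159-124814408, minus strand: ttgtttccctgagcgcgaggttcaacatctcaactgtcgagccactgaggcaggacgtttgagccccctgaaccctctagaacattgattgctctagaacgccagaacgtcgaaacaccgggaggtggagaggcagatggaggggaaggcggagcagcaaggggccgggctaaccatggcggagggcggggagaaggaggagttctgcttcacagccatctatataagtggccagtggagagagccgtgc
Bnip3, chr7:138909507-138909756, minus strand: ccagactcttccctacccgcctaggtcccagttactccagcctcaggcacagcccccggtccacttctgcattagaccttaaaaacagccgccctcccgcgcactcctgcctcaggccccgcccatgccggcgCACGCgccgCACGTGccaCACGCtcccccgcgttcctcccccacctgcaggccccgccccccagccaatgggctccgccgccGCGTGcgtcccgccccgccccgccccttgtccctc
Pdk1, chr2:71872974-71873223, plus strand: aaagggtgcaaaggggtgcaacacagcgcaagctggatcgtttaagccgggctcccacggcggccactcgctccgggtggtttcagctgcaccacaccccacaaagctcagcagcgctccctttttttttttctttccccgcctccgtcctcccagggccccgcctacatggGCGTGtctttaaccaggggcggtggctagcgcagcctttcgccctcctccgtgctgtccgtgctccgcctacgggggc
Egln3, chr12:54203875-54204124, minus strand: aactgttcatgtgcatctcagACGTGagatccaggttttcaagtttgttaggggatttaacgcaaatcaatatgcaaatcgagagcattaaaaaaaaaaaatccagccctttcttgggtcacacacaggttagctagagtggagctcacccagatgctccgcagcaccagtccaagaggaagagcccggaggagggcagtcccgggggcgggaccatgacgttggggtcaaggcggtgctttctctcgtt
P4ha1, chr10:59323046-59323295, plus strand: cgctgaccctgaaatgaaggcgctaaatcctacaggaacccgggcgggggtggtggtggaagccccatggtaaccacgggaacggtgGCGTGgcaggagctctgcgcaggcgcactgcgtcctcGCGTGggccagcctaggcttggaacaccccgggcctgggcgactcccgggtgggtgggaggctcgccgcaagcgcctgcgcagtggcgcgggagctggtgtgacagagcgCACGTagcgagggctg

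Bnip3 held 5 matches in this stretch, of which 2 overlap in the palindrome CACGTG, while P4ha1 held 3, Pfkl, Aldoc, Pdk1 and Egln3 held 1 each, and Tpi1 held 0. Over the whole windows of 300 bases, which run 50 bases past the start site, either motif on either strand was present for 15 of 18 enzymes and 15 of 15 matched hypoxia-inducible genes, taking all windows listed for a gene. The same held for 69.9% of 8337 genes that averaged 1 FPKM or more and for 46.7% of all 27025 genes in the table of promoters. ACGTG alone was present for 10 of 18 enzymes and 12 of 15 hypoxia-inducible genes, beside 30.4% and 21.8%. The hypoxia-inducible genes were listed for being HIF targets, so this is a description of the list. Over the same windows of 300 bases, again all those listed for a gene, 6 of the 7 genes shown held either motif and 4 held ACGTG. A match counted there can lie outside the bases printed.

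Between untreated EpiSCs and ESCs with serum, 4 of 18 enzymes were higher (Pfkl, Tpi1, Pgk1 and Ldha) and 2 lower (Hk1 and Pfkp), where 11.6% of all genes compared were higher and 9.55% lower. Of the 14 hypoxia-inducible genes, 6 were higher (Bnip3, Egln1, Egln3, Ndrg1, P4ha1 and Pfkfb3) and 2 lower (Pdk1 and Ankrd37). Medians were 0.22 and 0.56, beside -0.01 for all genes. Intervals were apart for Pfkl, Tpi1, Ldha, Bnip3 and Epas1 among the 34 members compared, where 5.52% of all genes compared were 2-fold apart in this way. With Pfkl as the exception, the higher enzymes share over 10% of their words with other genes. Without such members 3 of 8 enzymes were 2-fold apart, namely Pfkl higher and Hk1 and Pfkp lower.

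Against ESCs with BMP-4 the picture was another. Of the 18 enzymes 0 were higher and 4 lower in untreated EpiSCs (Hk1, Pfkp, Aldoc and Eno3), and of the 14 hypoxia-inducible genes 0 were higher and 3 lower (Pdk1, Ankrd37 and Mxi1), where 11% of all genes compared were higher and 10% lower. Medians were -0.02 for both lists and 0.00 for all genes compared. Of the 34 members compared, 2 (Pdk1 and Epas1) were 2-fold apart with intervals apart, where 5.5% of all genes compared were. The comparisons of untreated EpiSCs and of ESCs with BMP-4 against serum share the serum library, so that a low value there raises a gene in both. Pfkl, for example, lay at 1.46 and 1.55 in them, Tpi1 at 1.59 and 2.17 and Bnip3 at 3.43 and 2.84, while EpiSCs and ESCs with BMP-4 differed directly by 0.09, 0.58 and -0.59 for these genes.

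**Figure D4:**
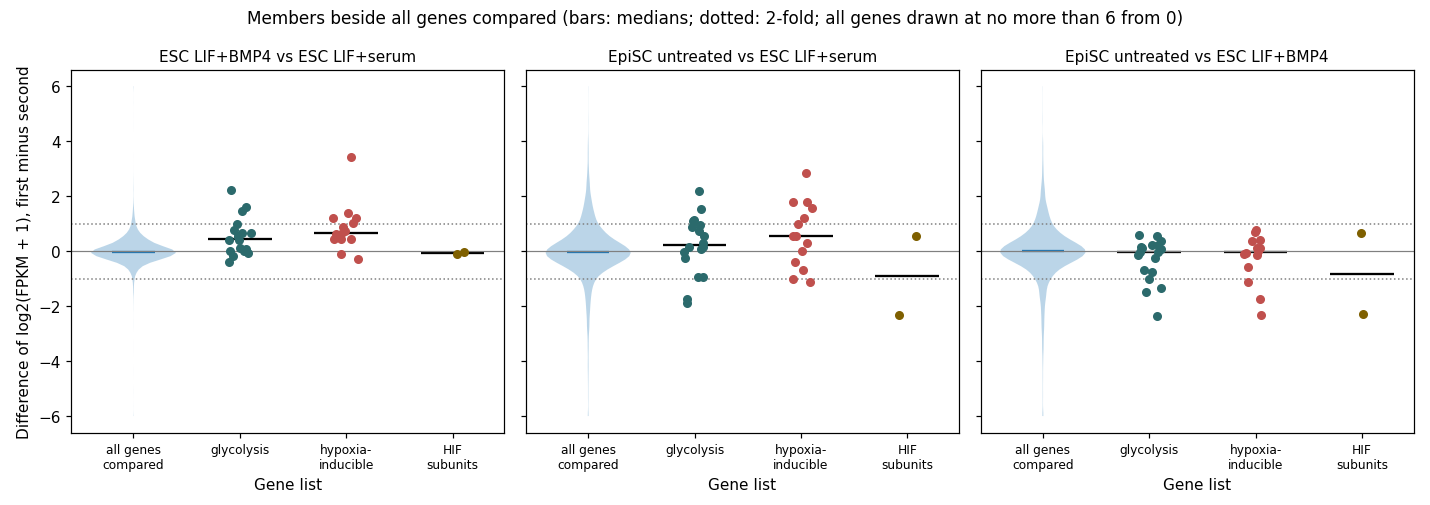
Difference of log2(FPKM + 1), first minus second library, for all genes compared (violin, drawn at no more than 6 from 0) and for the members compared, by list (points), with medians as bars and 2-fold as dotted lines, in 3 comparisons. Both lists lie mostly above 0 for ESCs with BMP-4 against ESCs with serum (medians 0.46 and 0.67) and close to 0 for untreated EpiSCs against ESCs with BMP-4 (median -0.02 each).

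Taking all libraries, ESCs with serum were the lowest of the 5 for 10 of 18 enzymes and 9 of 14 hypoxia-inducible genes, and for 25.9% of all genes compared. This count was made after the values had been seen. The 3 EpiSC libraries lay above both ESC libraries for 13 of 34 members and below them for 9, where 34.9% and 35.7% of all genes compared did so, so members did not split by cell state more often than genes at large. At a 2-fold distance from both ESC libraries, 0 members were above, where 7.21% of all genes compared were, and 4 were below (Hk1, Pfkp, Ankrd37 and Epas1), where 6.62% were.

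After BMP-4 in EpiSCs these genes stayed close to their untreated values, as did most genes compared, so the counts below lie near the background. After 1.5 h, 0 of 34 members were 2-fold apart, as were 0.418% of all genes compared, and the differences ran from -0.31 for Pfkfb3 to 0.21 for Egln1. After 24 h, Ndrg1 alone was 2-fold apart, where 1.18% of all genes compared were, and the enzymes ran from -0.26 for Pfkm to 0.23 for Eno2. Between 24 h and 1.5 h, 0 of 34 members were 2-fold apart, beside 1.04% of all genes compared, with Ndrg1 at -0.78 the farthest from 0. Median differences of the enzymes were 0.06, -0.04 and -0.07 in these 3 comparisons. The untreated library enters the first and the second of them, and the 1.5 h library the first and the third.

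**Figure D5:**
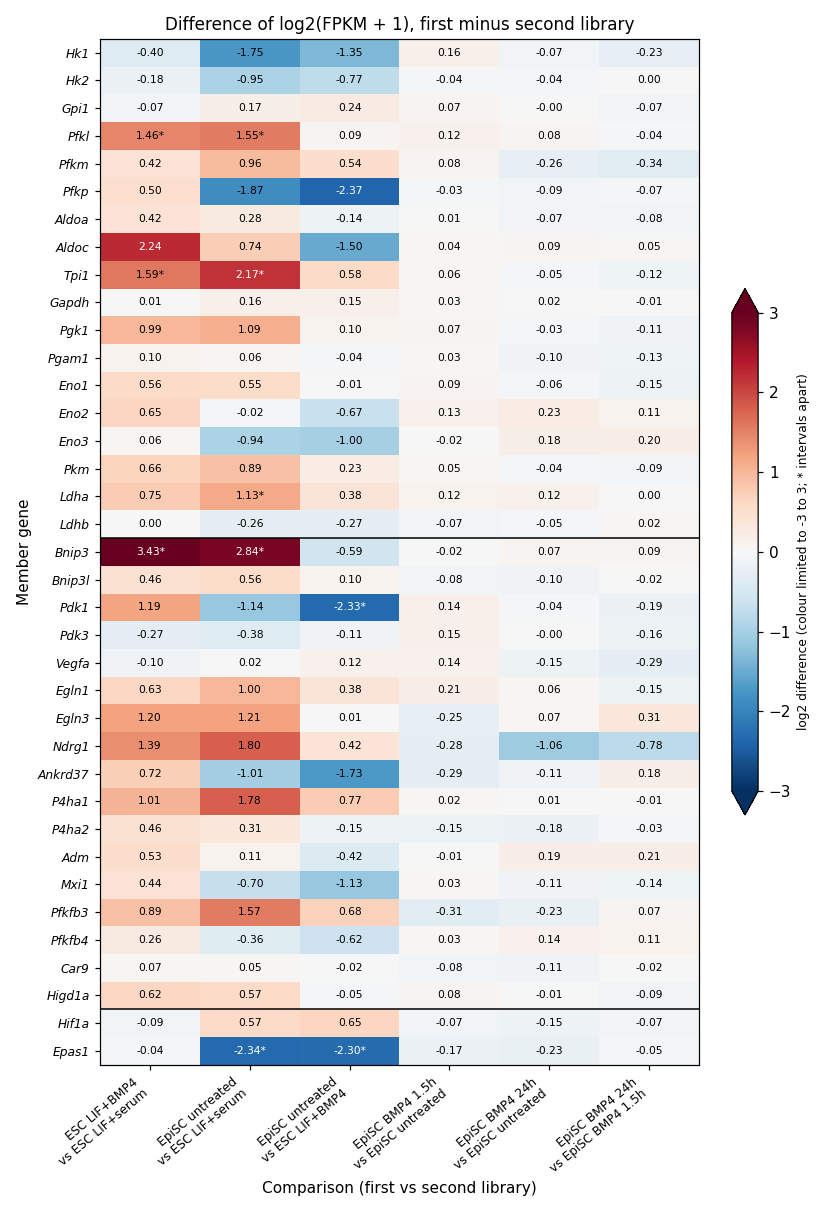
Difference of log2(FPKM + 1) for each of the 37 members (rows) in the 6 comparisons (columns, first minus second library), with colour limited at 3 either way, an asterisk where a 2-fold difference had intervals apart, and lines between glycolysis enzymes, hypoxia-inducible genes and HIF subunits. The 3 columns with an ESC library hold nearly all large values, and among the 3 columns within EpiSCs the value for Ndrg1 at 24 h, -1.06, is the largest.

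Neighbouring genes of the pathway were taken from 7 further lists. Of 6 transporters of glucose and lactate that passed the mean, 2 were higher in ESCs with BMP-4 than with serum, Slc16a3 and Slc2a8. Of these 6, 0 were lower (median 0.48), beside 2.61% of all genes compared higher and 1.28% lower. Slc2a8 stood at 0.637 FPKM [0 to 1.59] with serum and 3.20 [0 to 6.82] with BMP-4, with overlapping intervals. Slc16a3, the lactate exporter MCT4, stood at 2.35 FPKM [0 to 4.94] with serum, 15.9 [4.99 to 26.7] with BMP-4 and 58.7 [27.9 to 89.5], 62.9 and 53.2 in EpiSCs. It was 5.04-fold higher in ESCs with BMP-4 than with serum, and 3.54-fold higher in untreated EpiSCs than in ESCs with BMP-4, with intervals apart in both. The main glucose transporter genes had their highest value in ESCs with BMP-4. Slc2a1 stood at 90.04 and 146 FPKM in ESCs and 73.0, 60.4 and 71.1 in EpiSCs, and was not 2-fold apart in any of the 6 comparisons. Slc2a3 stood at 177 and 213 FPKM in ESCs and 94.6, 91.4 and 105 in EpiSCs, and was 2.24-fold lower in untreated EpiSCs than in ESCs with BMP-4, with overlapping intervals.

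Of 29 other hypoxia targets, which include Slc2a1 and Slc2a3, 3 were higher with BMP-4 than with serum in ESCs and 0 lower (median 0.30), beside 2.61% and 1.28% of all genes compared, among them Bhlhe40, a transcriptional repressor, at 3.66 and 12.7 FPKM, and the phosphoglucomutase gene Pgm2 at 6.995 and 15.9. Between untreated EpiSCs and ESCs with serum, 7 were higher and 3 lower (median 0.21), beside 11.6% and 9.55% of all genes compared. Between untreated EpiSCs and ESCs with BMP-4, 4 were higher and 4 lower (median -0.02), beside 11% and 10%, so the last counts lie near the background. Ddit4, an inhibitor of mTORC1, stood at 16.6 and 21.8 FPKM in ESCs and 92.1, 82.5 and 103 in EpiSCs. Fam162a stood at 26.2 and 37.9 FPKM in ESCs and 97.7 in untreated EpiSCs, and Gbe1, the glycogen branching enzyme, at 5.62, 4.65 and 22.7. Narf stood at 3.43, 6.83 and 12.96 FPKM, and the secreted glycoprotein gene Stc2 at 1.58, 1.305 and 5.16. In the opposite direction, the histone demethylase gene Kdm3a stood at 71.8 and 91.1 FPKM in ESCs and 21.1, 21.4 and 21.9 in EpiSCs. Angptl4, a lipoprotein lipase inhibitor, stood at 13.8 and 13.2 FPKM in ESCs and was listed at 0 in untreated EpiSCs, and Plin2, of the lipid droplet coat, stood at 3.62, 4.31 and 0.0560 FPKM. Intervals were apart for Ddit4, Kdm3a and Angptl4 against both ESC libraries and for Gbe1 against ESCs with BMP-4. That is 3 of 29 against serum and 4 of 29 against BMP-4, beside 5.52% and 5.5% of all genes compared.

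The counts in this paragraph stand beside these shares of all genes compared. Between the ESC libraries 2.61% were higher and 1.28% lower, so counts of 0 there in such short lists lie near the background. Untreated EpiSCs had 11.6% higher and 9.55% lower than ESCs with serum, and 11% and 10% than ESCs with BMP-4. Of 13 genes that control HIF, 0 were higher or lower between the ESC libraries (median 0.03). In untreated EpiSCs 1 was higher and 0 lower than in ESCs with serum (median -0.20), and 1 was higher (Hif3a in both) and 1 lower (Arnt) than in ESCs with BMP-4 (median -0.23). Vhl stood between 6.44 and 7.91 FPKM and Egln2 (PHD1) between 15.2 and 18.1. Hif3a, a further alpha subunit, stood at 0.548 and 0.491 FPKM in ESCs and 3.74, 3.81 and 3.17 in EpiSCs, below the 5 FPKM set for naming, and is given because its family is described here. Arnt, the shared beta subunit, stood at 22.9 FPKM with serum, 39.4 with BMP-4 and 17.3, 18.7 and 20.1 in EpiSCs, and was 2.21-fold lower in untreated EpiSCs than in ESCs with BMP-4, with overlapping intervals. Of 10 genes of pyruvate entry and glycolysis control, 0 were 2-fold apart between the ESC libraries (median -0.07). 9630033F20Rik, the older symbol of the fructose bisphosphatase gene Tigar, was 2.99-fold and 2.77-fold lower in untreated EpiSCs than in ESCs with serum and with BMP-4 (30.4, 28.1 and 9.49 FPKM), with overlapping intervals. Of 8 pentose phosphate genes, 0 were 2-fold apart in any of the 6 comparisons, with medians of 0.08 between the ESC libraries and 0.21 and 0.14 for untreated EpiSCs against them. Of 4 gluconeogenesis genes that passed the mean, 0 were 2-fold apart between the ESC libraries. In untreated EpiSCs 0 were higher and 1 lower than in ESCs with serum, and 0 higher and 2 lower than in ESCs with BMP-4. Of these 2, Pcx, pyruvate carboxylase, was 2.17-fold lower (8.47 FPKM in ESCs with BMP-4 and 3.36 in untreated EpiSCs, overlapping intervals). The other, also the one lower than with serum, stayed below the 5 FPKM set for naming. Among 12 other isozymes, such as Hk3 and Pgk2, 3 reached a mean of 1 FPKM, and those 3 held 0 genes that were 2-fold apart between the ESC libraries. Of all genes on the 7 lists, Pgam2, the muscle mutase, was alone in being 2-fold apart after BMP-4 in EpiSCs, at 0.539 FPKM untreated, 0.482 at 1.5 h and 2.58 at 24 h, with overlapping intervals. It is named for that after its values were seen.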

How the data were processed

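RNA from 5 cultures was measured with 1 library each. Per the labels' protocols, polyadenylated RNA was purified on oligo-dT beads, decapped and fragmented, and strand-specific libraries were built using a kit for small RNA. The authors deposited FPKM per gene with a lower and an upper bound and a status, per the file headers. The submitters' processing notes name TopHat, Cufflinks, Picard, SAMtools and mm9. The annotation, the meaning of the bounds and the scaling between libraries were not stated in them. Every member had the status OK in every library.

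Members were matched by symbol. Differences of log2(FPKM + 1) were taken for genes averaging 1 FPKM or more with status OK (Python 3.11.15, numpy 2.4.6, pandas 2.3.3), and the code was tested on simulated data. Positions are those of the file, taken to count from 0 and written from 1. Depth was estimated: the most frequent value of a single read among genes with 1 transcript over 1500 nt set the 24 h total, and the most frequent ratio of values under 0.5 FPKM set the others, so read numbers are approximate. Shared sequence was counted as 36-base words of coding transcripts. Named genes are all members and, from other lists, up to 4 per direction and comparison that were 2-fold apart and reached 5 FPKM; further genes named from those lists (Slc2a1, Hif3a, Vhl, Egln2, Hk3, Pgk2, Pgam2, Plin2 and Slc2a8) were chosen after their values were seen. Members and lists were chosen with earlier results of these data known. Other pseudocounts, filters, scalings and thresholds were tried. An exact 0 can be a failed estimate and gets no fold.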

Additional observations from a re-analysis of the deposited data

How the results depend on the processing

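No paired analysis was possible because there was a single library for every group, so none could be left out either. Without replicates or stated counts, the deposited intervals set the precision. Under both other scalings (upper quartile, and centring on the median of all genes) every count of enzymes or hypoxia-inducible genes kept within 1.5 times its reported value, and no member that was 2-fold apart changed direction under any pseudocount or scaling tried. Single calls did end: Ankrd37 (EpiSCs against serum) under both scalings and Eno3 (against ESCs with BMP-4) under upper-quartile scaling. With a pseudocount of 5, calls ended between the ESC libraries for Egln3, Ndrg1 and P4ha1, against serum for Pdk1, Ankrd37, Egln1, Egln3 and Pfkfb3, and against ESCs with BMP-4 for Hk1, Eno3, Mxi1 and Epas1. Counts that moved by more follow, as numbers of genes apart.

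Between the ESC libraries, 1.5-fold as the threshold gave 7 enzymes in place of 3 and 9 hypoxia-inducible genes in place of 5. The share of all genes at 1.5-fold is not given here, so counts at that threshold have no background beside them. A pseudocount of 5 left 2 of those 5, and intervals apart left 1. For untreated EpiSCs against ESCs with serum, the 6 enzymes became 11 at 1.5-fold, 3 with intervals apart and 3 without members sharing over 10% of their words (chosen after seeing the data), and the 8 hypoxia-inducible genes became 3 with a pseudocount of 5, 5 when genes had to average 5 FPKM and 1 with intervals apart. Against ESCs with BMP-4, the 4 enzymes became 2 with a pseudocount of 5 and 0 with intervals apart, and the 3 hypoxia-inducible genes became 6 at 1.5-fold and 1 with intervals apart. Ndrg1 at 24 h, the 1 gene apart there, was lost (0) with a pseudocount of 5 and with intervals apart, and at 1.5-fold 1 gene in place of 0 was apart between 24 h and 1.5 h. Of the 4 members 2-fold apart from both ESC libraries, a pseudocount of 5 left 1. Where these changes were not set by the threshold or the number of genes itself, the cause was not tested.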
